A study of Mus musculus with 8 samples.

Results

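The respiratory chain assembly factors are nuclear-encoded proteins that build the complexes of the mitochondrial inner membrane without being part of the finished complexes. A list of 46 such factors was taken by gene symbol, and all 46 were found among the 22880 genes of the deposited tables. Of these, 14 serve complex I, 4 complex II, 6 complex III, 20 complex IV and 2 the ATP synthase, which is counted as complex V. All 46 passed the filter on low counts, with 129 to 6302 reads per gene and mouse.

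Each respiratory complex is put together stepwise from subunits of nuclear and, except for complex II, mitochondrial origin. Assembly factors insert membrane subunits, deliver haem, copper, flavin and iron-sulphur clusters, modify single residues and hold part-built modules together until they join. Loss of single factors is a known cause of mitochondrial disease, in which muscle with a high oxidative demand is often affected.

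The RNA came from soleus, a hind limb muscle rich in slow oxidative fibres, of male mice aged 2 months on a C57BL/6 background. The groups were 4 controls (Dnm2 +/+) and 4 heterozygous point mutants (Dnm2 +/K562E, written Dnm2 wt/K562E here). Dnm2 encodes dynamin 2, a GTPase of membrane fission, and the mutant allele replaces 1 copy of the endogenous gene in all cells, so effects of muscle and of other tissues on the soleus come together. Each library held 33407430 to 48832814 reads counted on genes. Values are given as normalized CPM, which are counts per 1000000 counts of the library after scaling by TMM, a method that sets libraries level by their least changed genes. Dnm2 itself stood at 66.3 and 73.4 normalized CPM in control and Dnm2 wt/K562E mice (log2 fold change 0.15, SE 0.066, adjusted p = 0.0909), and a count per gene does not separate the alleles.

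In Dnm2 wt/K562E soleus 25 of the 46 assembly factors fell and none rose, at an adjusted p under 0.05 in the quasi-likelihood test of edgeR, with p-values adjusted over all 14001 tested genes. With libraries scaled by their size alone, 16 fell and 6 rose. Across all tested genes 21.7% fell and 22.2% rose at the same threshold, against 54.3% of the assembly factors that fell. The median log2 fold change was -0.30 for the assembly factors and 0.0074 for all tested genes, whose quartiles were -0.26 and 0.33. The values ran from -1.01 for Ndufaf5 to 0.12 for Surf1, and 40 of the 46 were below zero. In 23 factors every Dnm2 wt/K562E mouse lay below every control, and in 0 factors every one lay above, where 20.5% and 20.6% of all tested genes did so. With a log2 fold change of at least 0.58 required in addition, 9 factors fell and 0 rose, beside 7.85% and 12.9% of all tested genes. These 9 were Ecsit, Ndufaf4, Ndufaf5, Ndufaf6, Lyrm7, Ttc19, Cox10, Lrpprc and Coa7. By complex, 9 of 14 factors fell for complex I, 2 of 4 for complex II, 4 of 6 for complex III, 9 of 20 for complex IV and 1 of 2 for complex V. The median log2 fold changes were -0.39, -0.22, -0.40, -0.21 and -0.28 in that order. With library size alone, 7 fell for complex I, 1 for complex II, 3 for complex III, 4 for complex IV and 1 for complex V. On that scaling 1 factor of complex III and 5 of complex IV rose, and the medians were -0.18, -0.012, -0.19, -0.0015 and -0.068. In RNA from whole muscle, fewer cells of a type and less RNA per cell cannot be told apart.

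**Figure D1:**
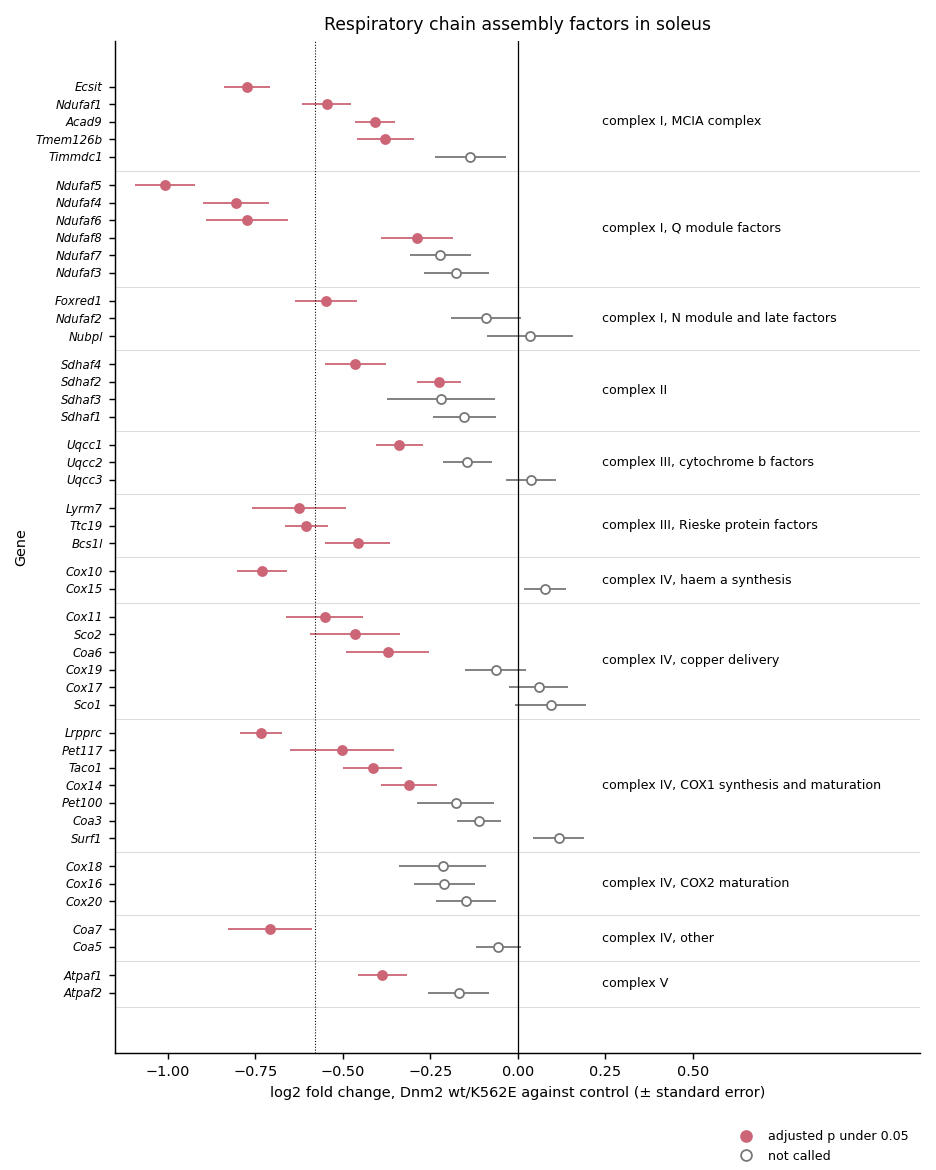
The log2 fold change of each of the 46 assembly factors (points, horizontal axis, with standard errors as bars) is grouped by role, with filled points for the 25 genes below an adjusted p of 0.05 and a dotted line at the log2 fold change of -0.58. Filled points lie only on the left of zero under TMM scaling, whereas library size alone gave 16 lower and 6 higher genes, and 6 factors, with values up to 0.12, lie on the right of zero without a call.

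The MCIA complex holds the membrane arm of complex I while it is being assembled, and 4 of its 5 factors fell. Ecsit, also known as an adaptor of Toll-like receptor signalling, is on chromosome 9 (22072246 to 22085438, minus strand, GRCm38). It was measured at 88.2, 94.3, 92.6 and 87.5 normalized CPM in controls 1 to 4, and at 48.1, 57.0, 53.9 and 53.1 in Dnm2 wt/K562E mice 1 to 4. The groups were far apart, with every mutant mouse far below the lowest control. The log2 fold change was -0.77 (SE 0.065, adjusted p = 6.93e-06). Ndufaf1, the core chaperone of the complex, fell by 0.55 on the log2 scale (SE 0.070, adjusted p = 0.000116), Acad9, a relative of the acyl-CoA dehydrogenases, fell by 0.41 (SE 0.056, adjusted p = 0.00019) and the membrane protein Tmem126b fell by 0.38 (SE 0.082, adjusted p = 0.0036). With library size alone the value of Tmem126b was -0.17 and its call was lost (adjusted p = 0.0834). In Timmdc1, also a membrane protein, the groups overlapped (-0.14, SE 0.10, adjusted p = 0.306).

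Factors of the Q module, the part of complex I that passes electrons to ubiquinone, held the largest change of the list, and 4 of 6 fell. Ndufaf5 hydroxylates an arginine of the Q module subunit Ndufs7 and lies on chromosome 2 (140170649 to 140203689, plus strand). Its normalized CPM were 28.3, 26.1, 31.8 and 27.6 in controls 1 to 4, and 13.0, 15.6, 14.3 and 13.7 in Dnm2 wt/K562E mice 1 to 4. Every mutant mouse stood clearly below every control. The mean was 28.5 ± 2.40 in controls and 14.1 ± 1.14 in Dnm2 wt/K562E mice (SD, n = 4 each), which is 0.497 of the control level (log2 fold change -1.01, SE 0.086, adjusted p = 7.71e-06). Ndufs7, its substrate, fell by 0.999 on the log2 scale (SE 0.078). Ndufaf8, the partner that stabilizes Ndufaf5, fell by 0.29 (SE 0.10, adjusted p = 0.0425) with groups that overlapped, and its call held in 7 of 18 alternative analyses. Ndufaf4 fell by 0.81 (SE 0.095, adjusted p = 6.75e-05), while Ndufaf3, with which it forms a pair on the Q module, overlapped between groups (-0.18, SE 0.094, adjusted p = 0.152). Ndufaf6, needed early for the same module, fell by 0.77 (SE 0.12, adjusted p = 0.000348). Ndufaf7, a methyltransferase, was at -0.22 (SE 0.088, adjusted p = 0.0611), with 14.8 to 16.7 normalized CPM in Dnm2 wt/K562E mice just below the 17.2 to 21.4 of controls.

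Promoters of 41 of the 46 factors were found in RefSeq (GRCm38.p6), each from 250 bases before to 50 after the gene start. Where a gene had more than 1 such window it counted once. The windows were searched on both strands for CGCATGCG, the core of the site of nuclear respiratory factor 1, a transcription factor known for mitochondrial genes. It was present in 3 of the 41 genes (7.32%), against 4.08% of the 10788 tested genes with a window and 13.8% of 65 genes of respiratory subunits. The 3 genes were Ndufaf4, Ndufaf5 and Ttc19, which all fell, and their windows are shown because they are the ones in the list that carry these letters. The windows are chr4:24897833-24898132, chr2:140170396-140170695 and chr11:62281223-62281522, all on the plus strand, with the 8 letters in capitals.
Ndufaf4: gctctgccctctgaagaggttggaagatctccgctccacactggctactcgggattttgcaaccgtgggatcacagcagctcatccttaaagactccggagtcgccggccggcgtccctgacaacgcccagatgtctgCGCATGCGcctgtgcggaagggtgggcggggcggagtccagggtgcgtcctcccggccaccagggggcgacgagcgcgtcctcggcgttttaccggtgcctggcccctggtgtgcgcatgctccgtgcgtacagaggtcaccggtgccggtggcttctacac
Ndufaf5: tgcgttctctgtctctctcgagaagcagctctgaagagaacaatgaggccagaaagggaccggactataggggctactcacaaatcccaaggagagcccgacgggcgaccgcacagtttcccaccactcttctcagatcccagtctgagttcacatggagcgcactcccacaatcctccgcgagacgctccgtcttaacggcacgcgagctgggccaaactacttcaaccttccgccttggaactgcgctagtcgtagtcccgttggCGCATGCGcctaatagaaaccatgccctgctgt
Ttc19: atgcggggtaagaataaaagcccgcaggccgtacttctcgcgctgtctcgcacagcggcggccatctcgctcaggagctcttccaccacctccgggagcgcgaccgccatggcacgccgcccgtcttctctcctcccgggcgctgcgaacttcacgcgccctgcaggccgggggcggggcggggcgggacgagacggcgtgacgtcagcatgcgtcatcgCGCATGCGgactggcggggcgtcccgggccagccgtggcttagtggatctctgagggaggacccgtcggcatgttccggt
The capitals begin 112 bases before the start of Ndufaf4, 17 bases after that of Ndufaf5 and 30 bases before that of Ttc19. Of the 22 genes that fell and had a window, 3 held these letters (13.6%), and of the 19 others with a window 0 did. Counts this small cannot show a difference, and the letters say nothing on whether the factor binds there.

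Among factors that act late on complex I or on its NADH-binding N module, 1 of 3 fell. Foxred1, a flavoprotein of late assembly on chromosome 9 (35204206 to 35211055, minus strand), had 28.1, 26.0, 22.8 and 22.8 normalized CPM in controls 1 to 4 and 17.5, 15.4, 17.5 and 17.8 in Dnm2 wt/K562E mice 1 to 4. All mutant values were below all control values, and mutant mouse 2 was the lowest. The log2 fold change was -0.55 (SE 0.089, adjusted p = 0.000579). Ndufaf2, which occupies the place of a late subunit until the N module docks, was at -0.09 (SE 0.099, adjusted p = 0.489). Nubpl, which supplies iron-sulphur clusters to complex I, was at 0.034 (SE 0.12, adjusted p = 0.844) and was the weakest of the 46 factors per length, at 0.847 CPM per kb of exon in controls.

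Complex II, succinate dehydrogenase, has 4 dedicated factors, of which Sdhaf4 and Sdhaf2 fell. Sdhaf4 binds the flavin-carrying subunit Sdha before it joins Sdhb, and its gene is on chromosome 1 (23995939 to 24005656, minus strand). Its normalized CPM were 27.3, 30.9, 31.4 and 25.1 in controls 1 to 4 and 19.8, 19.8, 20.9 and 22.7 in Dnm2 wt/K562E mice 1 to 4. The groups did not overlap, and mutant mouse 4 came closest to the controls. The log2 fold change was -0.46 (SE 0.087, adjusted p = 0.00146). Sdhaf2, needed to attach the flavin to Sdha, fell by 0.23 (SE 0.064, adjusted p = 0.0144), but was at -0.015 with library size alone (adjusted p = 0.844). Sdhaf1 (-0.15, SE 0.091, adjusted p = 0.196) and Sdhaf3 (-0.22, SE 0.15, adjusted p = 0.274), which act on the iron-sulphur subunit Sdhb, overlapped between groups. Their clients were at -0.99 for Sdha (SE 0.059) and -0.92 for Sdhb (SE 0.073).

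The factors of complex III are grouped by client protein. Of the 3 that stabilize newly made cytochrome b, Uqcc1 fell, and all 3 that handle the Rieske iron-sulphur protein fell. Uqcc1, on chromosome 2 (155846894 to 155930310, minus strand), was at 109.0, 114.9, 117.8 and 106.6 normalized CPM in controls 1 to 4 and at 87.2, 82.6, 86.1 and 98.6 in Dnm2 wt/K562E mice 1 to 4. No mutant value reached the controls, although mutant mouse 4 came near them. This gave a log2 fold change of -0.34 (SE 0.068, adjusted p = 0.00216), against -0.13 with library size alone, where the call was lost (adjusted p = 0.0845). Its partner Uqcc2 was at -0.15 (SE 0.070, adjusted p = 0.115) and Uqcc3 at 0.037 (SE 0.070, adjusted p = 0.694), and both overlapped between groups.

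Ttc19, which clears fragments of the Rieske protein after its insertion, is on chromosome 11 (62281473 to 62328451, plus strand). It was measured at 42.0, 40.9, 43.6 and 41.7 normalized CPM in controls 1 to 4 and at 25.8, 28.6, 27.2 and 29.1 in Dnm2 wt/K562E mice 1 to 4. The 2 groups were tight and well apart. The log2 fold change was -0.60 (SE 0.062, adjusted p = 2.64e-05). Lyrm7, the chaperone that keeps the Rieske protein stable in the matrix, fell by 0.63 (SE 0.13, adjusted p = 0.00319), and Bcs1l, the AAA protein that moves it across the inner membrane, fell by 0.46 (SE 0.092, adjusted p = 0.00229). The Rieske protein gene Uqcrfs1 had a log2 fold change of -0.98 (SE 0.075).

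Haem a, which in animals is the cofactor of cytochrome c oxidase (complex IV), is made in 2 steps, and the enzymes of these steps were measured at different ratios in the genotypes. Cox10 turns haem b into haem o and lies on chromosome 11 (63962627 to 64079468, minus strand). Its normalized CPM were 70.2, 68.8, 61.3 and 59.8 in controls 1 to 4 and 38.1, 41.4, 39.7 and 37.4 in Dnm2 wt/K562E mice 1 to 4. The groups were clearly apart, and Cox10 fell by 0.73 on the log2 scale (SE 0.072, adjusted p = 1.94e-05). Cox15 turns haem o into haem a, and its values were 37.6, 35.0, 35.7 and 37.2 in controls 1 to 4 and 36.1, 39.0, 39.0 and 39.3 in Dnm2 wt/K562E mice 1 to 4. These groups overlapped (log2 fold change 0.077, SE 0.059, adjusted p = 0.318). The ratio of Cox10 to Cox15 in normalized CPM was between 1.61 and 1.97 in every control, but only 0.951 to 1.06 in mutant mice. The pair was singled out after its values were seen, so that no test was made. A ratio within a library does not depend on the scaling between libraries.

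The promoters of this pair are set side by side because both hold CCGGAAGT, a core letter string of the ETS family to which the nuclear respiratory factor 2 (GABP) belongs. It occurred in 6 of the 41 assembly factors with a window (14.6%) and in 8.47% of such tested genes. The other 4 genes were Timmdc1, Bcs1l, Cox14 and Cox16. The windows are chr11:64079423-64079722 and chr19:43752951-43753250 (GRCm38.p6), both read on the minus strand, with the 8 letters in capitals.
Cox10: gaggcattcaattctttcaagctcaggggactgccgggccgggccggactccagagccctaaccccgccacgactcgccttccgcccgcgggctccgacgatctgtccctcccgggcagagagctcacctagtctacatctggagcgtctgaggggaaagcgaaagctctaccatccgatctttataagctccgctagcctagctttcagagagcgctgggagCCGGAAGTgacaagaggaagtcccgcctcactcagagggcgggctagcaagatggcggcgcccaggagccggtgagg
Cox15: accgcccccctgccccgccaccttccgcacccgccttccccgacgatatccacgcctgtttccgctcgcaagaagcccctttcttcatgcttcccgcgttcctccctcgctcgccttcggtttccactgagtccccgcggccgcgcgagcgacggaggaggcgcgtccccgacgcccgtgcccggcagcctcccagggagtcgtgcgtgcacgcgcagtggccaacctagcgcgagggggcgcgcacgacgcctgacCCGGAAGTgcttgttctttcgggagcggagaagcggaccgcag
The capitals begin 27 bases before the start of Cox10 and 7 bases after that of Cox15, so the string is shared by a factor that fell and one whose groups overlapped. Of the 22 factors that fell and had a window, 3 held it (13.6%), and of the 19 others with a window 3 did (15.8%). TCAAGGTCA, the site of the oestrogen-related receptors, was in 0 of the 41 factors with a window, where 0.324% of the tested genes held it. At so low a share, a list of 41 cannot show a difference. Of 65 genes of respiratory subunits with a window, 5 held the ETS string (7.69%) and 2 held TCAAGGTCA (3.08%).

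Copper reaches complex IV through 6 of the listed factors, of which 3 fell. Cox11, which inserts the copper of the subunit COX1, is on chromosome 11 (90638173 to 90644931, plus strand). It was measured at 13.4, 14.1, 13.9 and 13.2 normalized CPM in controls 1 to 4 and at 8.83, 10.3, 7.56 and 10.5 in Dnm2 wt/K562E mice 1 to 4. Controls were closely alike and mutant mice more scattered, without overlap. The log2 fold change was -0.55 (SE 0.11, adjusted p = 0.00219). Sco2 fell by 0.47 (SE 0.13, adjusted p = 0.0131) and Coa6 by 0.37 (SE 0.12, adjusted p = 0.0259), both of them acting on the copper site of COX2 and both with groups that overlapped, and the call of Coa6 held in 10 of 18 alternative analyses. With library size alone neither passed the test, at -0.25 for Sco2 (adjusted p = 0.12) and -0.16 for Coa6 (adjusted p = 0.235). The other 3 were the chaperone Cox17, which brings copper to this pathway (0.060, SE 0.084, adjusted p = 0.594), Cox19 (-0.063, SE 0.087, adjusted p = 0.583) and Sco1, the relative of Sco2 (0.094, SE 0.10, adjusted p = 0.486).

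Of the 7 factors for synthesis and maturation of COX1, the mitochondrially encoded core subunit of complex IV, 4 fell. Lrpprc, which stabilizes mitochondrial messenger RNAs, is on chromosome 17 (84705247 to 84790789, minus strand). Its normalized CPM were 122.8, 125.1, 113.8 and 114.2 in controls 1 to 4 and 70.3, 71.0, 68.3 and 76.6 in Dnm2 wt/K562E mice 1 to 4. No mutant mouse came near the control range, and the log2 fold change was -0.73 (SE 0.061, adjusted p = 6.21e-06). Slirp, the protein that binds Lrpprc, fell by 0.31 (SE 0.069, adjusted p = 0.00361). Taco1, the translational activator of COX1, fell by 0.41 (SE 0.084, adjusted p = 0.00229), Cox14, which holds newly made COX1, fell by 0.31 (SE 0.080, adjusted p = 0.00896) and Pet117 fell by 0.50 (SE 0.15, adjusted p = 0.018), a call that held in 15 of 18 alternative analyses. All exons of Pet117 overlap exons of Kat14 on the same strand, so none of these analyses can tell its reads from those of Kat14. With library size alone the calls of Taco1 (-0.21, adjusted p = 0.0508), Cox14 (-0.10, adjusted p = 0.273) and Pet117 (-0.29, adjusted p = 0.115) were lost. Coa3, the partner of Cox14 (-0.11, SE 0.064, adjusted p = 0.181), Pet100 (-0.18, SE 0.11, adjusted p = 0.218) and Surf1, a factor of early COX1 maturation (0.12, SE 0.074, adjusted p = 0.227), overlapped between groups.

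None of the 3 factors for maturation of COX2 passed the test. Cox16, the one with the smallest p, was at 23.5, 26.6, 24.6 and 26.5 normalized CPM in controls 1 to 4 and at 21.3, 19.1, 22.6 and 24.6 in Dnm2 wt/K562E mice 1 to 4. Mutant mouse 4 lay within the control range, and the log2 fold change was -0.21 (SE 0.087, adjusted p = 0.0716). Cox18, which exports the tail of COX2 (-0.21, SE 0.12, adjusted p = 0.186), and its chaperone Cox20 (-0.15, SE 0.086, adjusted p = 0.188) had values of similar size. Of the remaining complex IV factors, Coa7, on chromosome 4 (108328140 to 108341544, plus strand), was at 22.5, 17.5, 20.0 and 17.2 normalized CPM in controls 1 to 4 and at 11.5, 12.7, 13.3 and 9.73 in Dnm2 wt/K562E mice 1 to 4. All mutant mice were below all controls, and Coa7 fell by 0.71 (SE 0.12, adjusted p = 0.00073). Coa5 was at -0.056 (SE 0.065, adjusted p = 0.515).

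The ATP synthase has 1 chaperone for each of the main subunits of its catalytic head. Atpaf1, which binds the beta subunit, is on chromosome 4 (115784812 to 115818828, plus strand) and had 53.9, 51.6, 48.5 and 48.5 normalized CPM in controls 1 to 4 and 38.0, 36.0, 38.2 and 42.6 in Dnm2 wt/K562E mice 1 to 4. The groups did not overlap, and the log2 fold change was -0.39 (SE 0.069, adjusted p = 0.00112). Atpaf2, which binds the alpha subunit, was at -0.17 (SE 0.087, adjusted p = 0.14). Their clients stood at -0.73 for the beta subunit gene Atp5b (SE 0.063) and -0.82 for the alpha subunit gene Atp5a1 (SE 0.064).

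**Figure D2:**
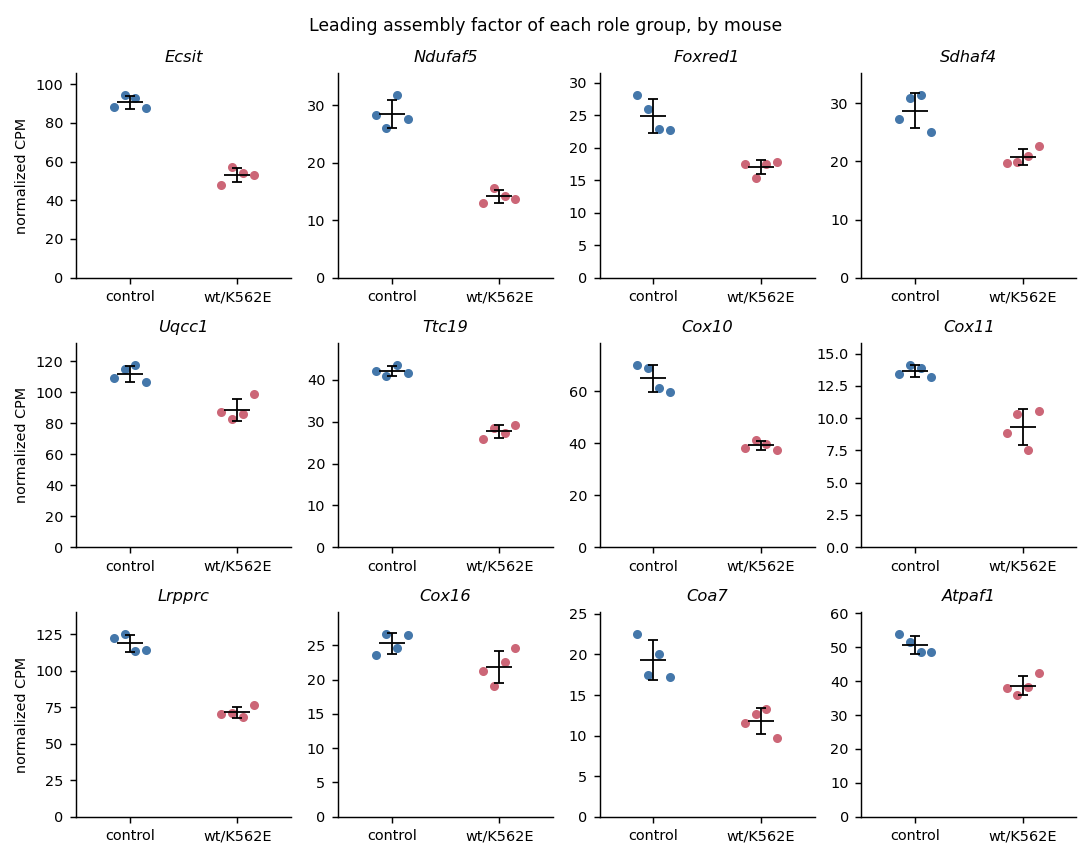
Normalized CPM (vertical axes, from 0) of the factor with the smallest p in each of the 12 role groups are shown for 4 control mice (blue) and 4 Dnm2 wt/K562E mice (red), with mean and SD as bars. In 11 panels the mutant mice lie below all controls, and in Cox16 the groups overlap, with 24.6 in mutant mouse 4 against 23.5 in the lowest control.

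Levels differed widely between factors and were compared per kb of exon. Control means lay between 0.847 CPM per kb for Nubpl and 92.5 for Uqcc2, with a median of 9.83. Mutant means lay between 0.868 and 83.6, with a median of 7.64. Cox14 stood next to Uqcc2, at 92.4. Over the 46 factors the control level on the log2 scale and the log2 fold change had a Pearson correlation of -0.153 and a Spearman correlation of -0.103, given as a description since all points share the same 8 libraries. The median coefficient of variation was 7.12% among controls and 7.43% among Dnm2 wt/K562E mice. Within the mutants, mouse 4 had the highest value of its group in 34 of the 46 factors, and among the controls, control 4 had the lowest in 25. The mean log2 CPM over all factors was 4.66 ± 0.044 over the controls and 4.33 ± 0.073 over the Dnm2 wt/K562E mice (SD, n = 4 each). Without mutant mouse 4, 26 factors fell and 12 of them passed the fold change threshold as well.

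The subunits that these factors assemble were set beside them. Of 79 nuclear genes listed as subunits, 76 fell and 1 rose with TMM scaling, and 75 fell and 2 rose with library size alone. Their median log2 fold change was -0.67, against -0.30 for the assembly factors. By complex the subunit medians were -0.65 for complex I, -0.86 for complex II, -0.68 for complex III, -0.62 for complex IV and -0.68 for complex V, each below the median of the factors of the same complex. Atpif1, counted in this list although it encodes the inhibitor of the ATP synthase, was the gene that rose with TMM scaling (0.58, SE 0.064). The mean log2 CPM of the subunits exceeded that of the assembly factors by 3.45 to 3.58 among controls but by 3.16 to 3.25 among mutants, a difference in which scaling cancels. Control and mutant mice did not overlap in it. It was not tested, since the lists were chosen with results known.

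**Figure D3:**
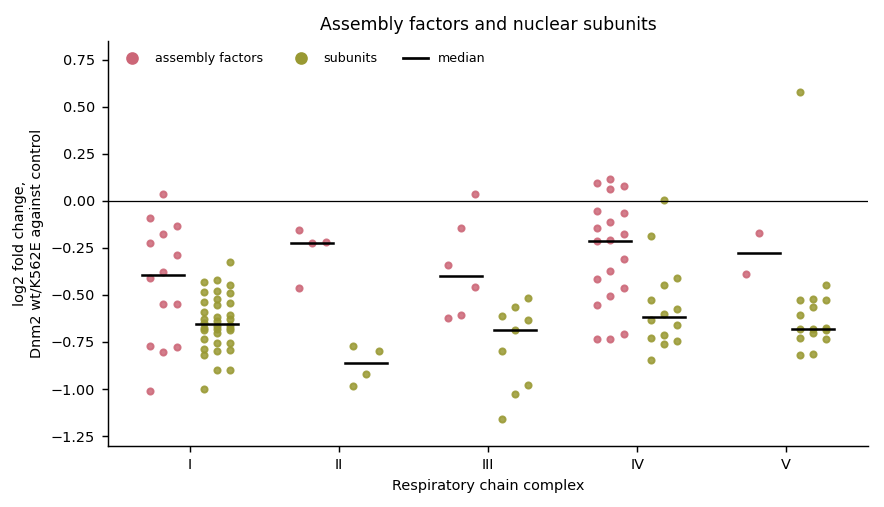
The log2 fold changes (vertical axis) of assembly factors (red) and nuclear subunits (olive, Atpif1 included) are shown by complex. Each point is a gene, and black lines are medians. With TMM scaling the subunit medians, from -0.86 to -0.62, lie below the factor medians, from -0.40 to -0.21, in all 5 complexes, and library size alone moved all points up together.

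Genes near the list were read for context. Of 20 further assembly factors tested, 12 fell and 1 rose (median -0.40 on the log2 scale), while library size alone gave 8 and 3. The lowest was Fmc1, an ATP synthase factor (-1.33, SE 0.11). The one that rose was Lyrm2, a complex I factor (0.28, SE 0.097, adjusted p = 0.0389), with groups that overlapped. In the mitochondrial iron-sulphur cluster machinery, which supplies complexes I, II and III, 8 of 14 genes fell and 0 rose, with a median of -0.26, and library size alone gave 4 and 2. Among 8 genes of the outer membrane and of general mitochondrial content all 8 fell, 5 of them also with library size alone, with a median of -0.47 and -0.84 for citrate synthase (Cs, SE 0.056).

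The scaling between libraries bears directly on these counts. All TMM factors of controls (0.915 to 0.959) were below those of mutants (1.037 to 1.103), so that leaving them out moved all log2 fold changes upwards, and the median of all tested genes went from 0.0074 to 0.22. Library size alone gave a median of -0.088 for the assembly factors, with 10.7% of all tested genes lower. The 6 factors that then rose were Surf1, Sco1, Cox17, Uqcc3, Cox15 and Coa5. The 9 that lost the call were Tmem126b, Ndufaf8 (-0.076, adjusted p = 0.556), Sdhaf2, Uqcc1, Sco2, Coa6, Taco1, Cox14 and Pet117. Both scalings called 16 factors lower, among them Ndufaf5 (-0.80 with library size alone), Ndufaf4 (-0.60), Ndufaf6 (-0.57), Ecsit (-0.56), Lrpprc (-0.52) and Cox10 (-0.52). Median-ratio scaling, which like TMM rests on the bulk of genes, left 25 lower and 0 higher.

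**Figure D4:**
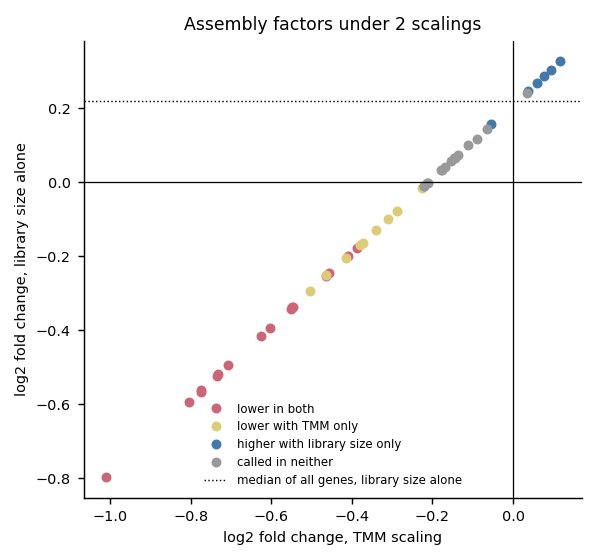
Each point is an assembly factor, with its log2 fold change under TMM (horizontal axis) and under library size alone (vertical axis), coloured by the calls, and the dotted line marks the median of all genes under library size alone, 0.22. Points are shifted upwards by about that median, so that 16 stay lower, 9 lose the call and 6 become higher.

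Markers of the cell types of muscle moved with genotype, and their part in the changes of the assembly factors was not tested. Markers of slow fibres fell in 6 of 7 cases, with a summed level of 19556 to 23042 normalized CPM over controls, against 11341 to 14343 over mutants. Fast fibre markers fell in 7 of 10 (46419 to 49294 and 29350 to 34720). Behind these sums, controls differed widely in Myh4 (mean 1024, SD 1411 normalized CPM) and in Pvalb (mean 541, SD 275). Of 5 genes of mature fibres 2 fell and 1 rose (44120 to 52061 and 33760 to 38320), where library size alone gave 2 and 2. Of 5 genes of regenerating fibres 3 rose (73.6 to 88.8 and 404.3 to 580.8), and all 7 macrophage genes (72.8 to 135.5 and 179.3 to 295.6) and all 7 fibroblast and matrix genes (2557 to 3862 and 6079 to 7999) rose. All 5 endothelial genes fell (862.1 to 900.2 and 616.2 to 704.8), 2 of them with library size alone. Of 5 Schwann cell genes 1 fell (180.6 to 199.7 and 153.4 to 187.7) and of 5 adipocyte genes 0 passed the test (81.5 to 443.8 and 135.6 to 240.1). No marker was at 0 in all 8 libraries. Among the marker lists, the summed levels of slow, fast and mature fibre markers exceeded those of the others.

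Some factors share sequence or exons with other genes, and whether the counting used strand is not stated in the sources used here. In 9 of the 46, at least 25% of the 31-base stretches of their transcripts occur in other genes or of their exons overlap a counted gene. These were Ecsit (25.1% of stretches), Ndufaf2 (65.1%), Sdhaf1 (69.9%), Cox11 (47.9%), Sco2 (89.7%), Pet100 (48.9%), Pet117 (100%), Cox16 (55.2%) and Cox20 (89.2%). Their values are uncertain where reads cannot be told apart, which for overlaps on the other strand holds only if counting ignored strand. Sdhaf1 overlaps E130208F15Rik on the other strand, which stood at 0.366 normalized CPM in controls, against 17.6 for Sdhaf1. Pet100 overlaps Pcp2 on the other strand, which did not pass the filter on low counts. Although reads counted for every gene they overlapped, few reads of Sdhaf1 and Pet100 thus counted for these neighbours. All exon bases of Pet117 overlap exons of Kat14 on the same strand, and Kat14 fell by 0.51 (SE 0.088). Sco2 overlaps Tymp on the same strand, which fell by 0.42 (SE 0.15, adjusted p = 0.0365). Cox11 overlaps Tom1l1 on the other strand (0.15, SE 0.14, adjusted p = 0.397). Sco2 also overlaps Ncaph2 on the other strand (-0.062, SE 0.079, adjusted p = 0.555). Cox16 overlaps Gm20498 on the same strand (-0.15, SE 0.078, adjusted p = 0.138). Cox20 overlaps Hnrnpu on the other strand (-0.14, SE 0.060, adjusted p = 0.0786). Coa6, below the 25% limit, overlaps Tarbp1 on the other strand, which fell by 0.64 (SE 0.13, adjusted p = 0.00221). Of the 37 factors below the limit 21 fell and 0 rose (median -0.31 on the log2 scale), and of the 9 at or above it, 4 fell (median -0.21).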

How the data were processed

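The authors deposited one table of raw counts per gene and mouse, made from RNA of 4 control and 4 Dnm2 wt/K562E soleus muscles. The submitters' processing notes name Trimmomatic 0.33, STAR 2.5.1b, the build GRCm38.p5, featureCounts and edgeR 3.14.0. The study's methods state that reads overlapping more than a single gene counted for every one of them, and that multi-mapping reads counted where their primary alignment lay. These methods describe poly A-enriched libraries, whereas the labels name a stranded total RNA kit, and neither the library type nor the use of strand was settled here.

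GENCODE M21 held 22647 of the 22880 gene IDs and gave symbols, positions, exon lengths and sequence sharing. The function filterByExpr of edgeR 4.0.16, with its minimum count of 10 and minimum total of 15, left 14001 genes for testing. TMM factors, the quasi-likelihood fit and its F-test were computed in R 4.3.3 without a block. The Benjamini-Hochberg adjustment covered the whole set tested. Genes counted as called below an adjusted p of 0.05, and more strictly with a log2 fold change of at least 0.58. Standard errors are those implied by the F statistic, and a prior count of 2 entered log2 CPM. Totals were 33407430 to 48832814 counts per mouse. Chi-square tests between mice of one group exceeded sampling noise in every pair, which alone cannot show that libraries come from separate animals. Each mouse counted as a replicate because the study's methods describe the mice as independent.

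All 46 factors are named. Values of every mouse are given for the factor with the smallest p in each role group and for the largest change, and would have been for any factor that rose. Cox15 was added after its values were seen. Members, gene lists and marker lists were chosen with earlier results of these data known. Alternatives comprised DESeq2 1.42.0, the exact test in edgeR, scaling by median-ratio factors or by library size only, removal of mitochondrially encoded genes, no filter, at least 10 counts in every mouse, 2 replicate blocks, a correction for length and GC content (mgcv 1.9.3) and leaving out each mouse. The scripts were tested on simulated data. Motifs of the proteins were not analysed here.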

Additional observations from a re-analysis of the deposited data

Results flagged for a closer look

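Values of each factor within each group were examined for a mouse far from the other 3, by the gap to its neighbour over the range of the group (the 95% critical value of Dixon's test). Among 92 groups 4 such mice were found, where chance gives about 1 in 20, and none of them is a control. Ndufaf2 was at 11.1 normalized CPM in Dnm2 wt/K562E mouse 4, with 8.90 to 9.21 in the other 3. Sdhaf3 was at 9.03 in the same mouse, with 6.84 to 7.08 in the others. Foxred1 was at 15.4 in Dnm2 wt/K562E mouse 2, with 17.5 to 17.8 in the others. Cox15 was at 36.1 in Dnm2 wt/K562E mouse 1, with 39.0 to 39.3 in the others.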

How the results depend on the processing

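With the exact test in edgeR, with DESeq2, with median-ratio factors, without filtering, with at least 10 counts in every mouse or without mitochondrially encoded genes, no factor changed its direction or call. Scaling by library size alone gave 16 lower and 6 higher factors, 2 lower at both thresholds (Ndufaf5 and Ndufaf4) and a median of -0.08832, with 0.219 for all genes. It turned the sign of Coa5 (0.157, adjusted p = 0.0426), Cox20 (0.0654), Cox19 (0.145), Sdhaf1 (0.0589), Pet100 (0.0325), Ndufaf3 (0.0349), Atpaf2 (0.0413), Coa3 (0.10), Ndufaf2 (0.118), Timmdc1 (0.0734) and Uqcc2 (0.065), as it shifts all genes upwards. Same-numbered mice had correlations of their deviations from the group means of -0.21 to 0.0095 with the titles' numbers. With the descriptions' numbers the correlations were -0.17 to 0.18. Such correlations cannot show whether the animals were paired, and the main fit used no pairing. A replicate block on the titles' numbers left 22 factors lower (without Coa6, Ndufaf8 and Sdhaf2), and on the descriptions' numbers 25 (without Ndufaf8, with Cox16). The length and GC correction left 23 (without Coa6 and Ndufaf8). Leaving out each mouse gave 22 to 27 lower, 8 to 12 lower at both thresholds and a median between -0.3567 and -0.2568. Coa6 lost its call without control 2, control 3 or mutant mouse 1, 2 or 3, Ndufaf8 without any mouse but control 1, and Pet117 without control 2 or mutant mouse 3. Cox16 gained one without control 1 or mutant mouse 4, Uqcc2 without control 1, Atpaf2 without control 3, Ndufaf7 without control 4 and Timmdc1 without mutant mouse 4. Small values changed sign, with ranges of -0.136 to 0.00775 for Cox19, -0.0175 to 0.0597 for Nubpl and -0.0267 to 0.101 for Cox17. The cause of the calls lost and gained was not tested. With 4 mice a group, changes near the standard error of 0.056 to 0.15 are below what these data resolve.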
